A study of Mus musculus with 6 samples.

Results

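The genes described here encode the complement and coagulation proteins that hepatocytes secrete into plasma. They were taken from the deposited table by gene name, from a list of 42 genes with these functions. All 42 were found among the 56534 genes or loci of the table, 21 of complement and 21 of coagulation, and all 42 passed the filter for testing (a mean of at least 1 FPKM). FPKM are fragments mapped to a gene, relative to its length and to all mapped fragments of the library.

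Liver RNA came from C57BL/6 mice whose diet supplied 60% of its energy as fat for 16 weeks, in both groups. The 3 CON libraries (CON 1, CON 2 and CON 3) have the genotype wild type. The 3 LKO libraries (LKO 1, LKO 2 and LKO 3) have the genotype CD36-/-, which the title of the series describes as a knockout restricted to hepatocytes. CD36 takes up long-chain fatty acids at the cell surface and binds lipoproteins. The sources used here do not give the promoter that drove the deletion, the sex and age of the mice, or any pooling of animals. Whether each library is a separate animal is not stated in the labels, and p-values therefore reflect only library-to-library spread, which may be technical in part.

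Complement is a cascade of plasma proteases that marks and lyses microbes. The classical and lectin pathways begin with recognition molecules that carry proteases. They meet the alternative pathway at the convertases that cleave C3, and the terminal components then build a pore in the target membrane. Coagulation is a second plasma cascade, in which zymogens activate each other until thrombin turns fibrinogen into fibrin. Serpins, protein C and the plasmin system hold it in check. Hepatocytes are the main source of most of these proteins, and several of them, fibrinogen and C3 among them, are acute phase proteins whose genes respond to interleukin-6 through STAT3 and C/EBP factors.

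The libraries differ in ways that bear on all values. Their FPKM summed to 831928 to 1271880, the depth in reads is unknown, and the median log2 fold change of all 11104 tested genes was -0.23, against 0.01 after median-ratio scaling of the libraries. Fold changes are differences of mean log2(FPKM + 1), LKO minus CON, and that median is the level to read them against. Deviations of genes from their mean followed gene length with a Spearman rho of -0.33 in LKO 1 and -0.30 in LKO 2, and of 0.10 to 0.29 in the other 4 libraries. Cd36 itself was at 61.95, 26.49 and 19.66 FPKM in CON and at 2.73, 3.70 and 10.22 FPKM in LKO (libraries 1 to 3 in order, here and throughout), so the library LKO 3 lay nearest to the CON range. The hepatocyte markers Alb, Ttr, Apoa1, Apoa2, Serpina1a, Hnf4a, Cps1 and Tat were all detected, with a summed level of 70090 to 94995 FPKM in CON and 73019 to 82453 FPKM in LKO. This sum joins markers that went different ways. Of the 8, 6 had a negative log2 fold change, among them Alb (-0.70) and Cps1 (-0.74). The 2 positive ones were Apoa1 (0.72) and Apoa2 (0.29). The median of the 8 was -0.37.

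None of the 42 genes passed an adjusted p of 0.05 (limma, adjusted p of 0.179 to 0.996 for the 42, where 1 of 11104 genes passed in the lower direction, 0.00901%, and 0 in the higher). At an unadjusted p under 0.05, 18 of the 42 were lower in LKO and 0 higher, against 18.9% and 3.25% of all genes. The coagulation genes were the lower of the 2 lists. Of 21 coagulation genes, 20 had a negative log2 fold change (71.6% of all genes did) and the LKO values lay below every CON value for 10 (24.3% of all genes). Their median log2 fold change was -0.61 on deposited FPKM and -0.31 after median-ratio scaling, in each case below that of all genes. The complement genes had a median of -0.18, close to that of all genes, and of 0.11 after median-ratio scaling, so the sign of this median depends on the scale. Of 21 complement genes, 13 had a negative log2 fold change, and for 8 the LKO values lay below every CON value. For 0 genes of either list did the LKO values lie above every CON value, against 3.92% of all genes. After median-ratio scaling 10 complement and 19 coagulation genes had a negative value (48.9% of all genes), and the groups stood apart in the lower direction for 1 complement and 2 coagulation genes (11.1% of all genes). In the higher direction they did so for 3 and 0 (12.3% of all genes).

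**Figure D1:**
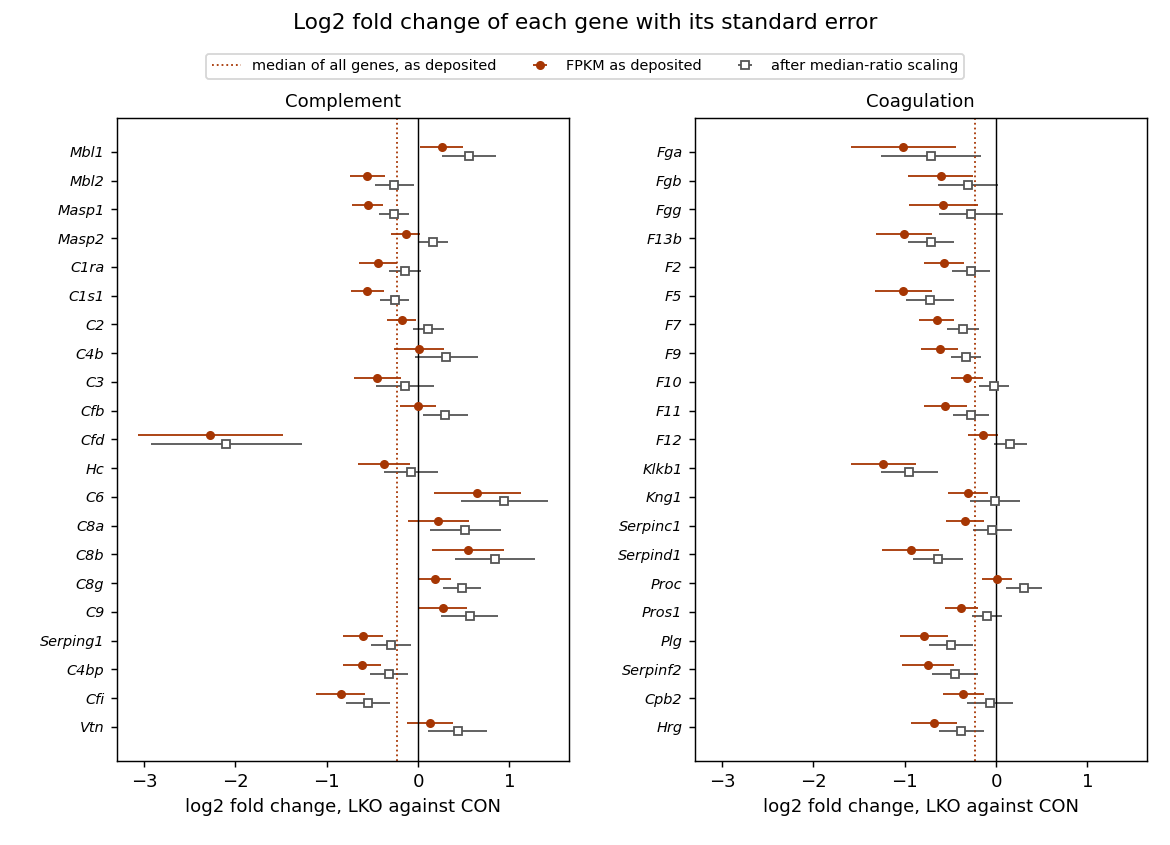
Log2 fold change of LKO against CON for the 21 complement and 21 coagulation genes (x axis), with the standard error of the limma fit as bars (n = 3 libraries per group), on deposited FPKM (filled circles) and after median-ratio scaling (open squares). The dotted line marks the median of all genes, -0.23; the coagulation genes lie mostly to its left, with Klkb1 lowest at -1.24, while the terminal complement genes C6, C8a, C8b, C8g and C9 lie to the right of 0.

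The single LKO libraries stood as follows in the 2 lists, whose difference was not tested. LKO 1 and LKO 2 were below all CON libraries for 19 and 19 of 21 coagulation genes, and LKO 3 for 11. Over all tested genes these shares were 51.0%, 62.0% and 40.7%, in the same order. On the log2 scale the coagulation genes deviated from the CON mean by a median of -0.66, -0.88 and -0.23 in these libraries, and all genes by -0.21, -0.38 and -0.11. The complement genes as a whole deviated by -0.24, -0.21 and -0.16, with 10, 12 and 10 genes below all CON libraries. Within complement, the regulators deviated by -0.68, -0.82 and -0.31 and the recognition molecules and early proteases by -0.55, -0.48 and -0.25. By these medians LKO 3 was nearest to CON in these roles too, although it was the lowest library for Mbl2 and Masp1. The convertase components deviated by -0.24, -0.21 and -0.38, with LKO 3 farthest from CON. The terminal components deviated by 0.32, 0.22 and 0.22. Without LKO 3, 13 coagulation genes and 5 complement genes passed in the lower direction (limma, adjusted p of 0.0083 to 0.0405), against 19% of all genes, and 0 in the higher direction, against 4.6%. In that fit the group cannot be told apart from the length trend of LKO 1 and LKO 2.

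Among the recognition molecules of the lectin pathway, the paralogs Mbl1 and Mbl2 went different ways. Mbl2, a mannose-binding lectin, was at 270.95, 248.63 and 188.32 FPKM in CON and at 158.18, 166.07 and 150.36 FPKM in LKO. The groups did not overlap, and the log2 fold change was -0.56 (SE 0.19; limma, adjusted p = 0.191). After median-ratio scaling the value was -0.26 and the groups overlapped. Mbl1, the other mannose-binding lectin, was at 144.26, 211.82 and 178.22 FPKM in CON and at 245.15, 234.84 and 162.67 FPKM in LKO. It was above all CON libraries in LKO 1 and LKO 2 and within their range in LKO 3 (log2 fold change 0.26, SE 0.23).

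The proteases that act just after recognition were lower by about the same log2 amount, with the exception of Masp2. Masp1, which encodes a lectin-pathway protease, was at 32.24, 25.62 and 27.21 FPKM in CON and at 18.67, 20.08 and 18.04 FPKM in LKO, with no overlap (log2 fold change -0.55, SE 0.17; limma, adjusted p = 0.179). It is one of the longer genes of the list (5345 bases), and with the length trend removed its value was -0.20. After median-ratio scaling its value was -0.27, and in each of these settings the groups overlapped. C1s1, the classical-pathway protease C1s, was at 235.26, 224.40 and 195.19 FPKM in CON and at 140.88, 133.15 and 172.24 FPKM in LKO, again with no overlap (-0.55, SE 0.18; limma, adjusted p = 0.187). C1s1 was the 1 complement gene still lower without overlap after median-ratio scaling, at -0.26 (11.1% of all genes were). Its partner protease gene C1ra was at 94.09, 105.03 and 98.61 FPKM in CON and at 67.44, 59.87 and 95.72 FPKM in LKO, where LKO 3 reached the CON range. Masp2, the protease that cleaves C4 and C2 in the lectin pathway, differed by -0.14 (SE 0.16) and by 0.16 after median-ratio scaling.

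Of the components that form the convertases, C3 was by far the most abundant. C3, the central component, was at 2049.72, 3493.11 and 2073.31 FPKM in CON and at 1709.60, 1852.20 and 1857.55 FPKM in LKO. The groups did not overlap, but CON 2 alone set much of the difference (log2 fold change -0.44, SE 0.26; limma, adjusted p = 0.318). After median-ratio scaling the value of C3 was -0.15, with overlap. The values of Cfb, factor B of the alternative pathway, averaged 670.3 ± 101 FPKM over the CON and 665.7 ± 53.0 FPKM over the LKO libraries (SD, n = 3 in each group). C4b was at 429 ± 122 and 429 ± 105 FPKM (SD, n = 3 each); it may share reads with its near-identical copy C4a, listed at 5.73 to 24.55 FPKM, so its value is uncertain. C2, the protease of the classical convertase, differed by -0.18 (SE 0.16), and by 0.11 after median-ratio scaling.

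Cfd had the largest log2 difference of the 42 genes, and it was carried by 2 libraries. The gene (ENSMUSG00000061780) encodes factor D, the protease that activates factor B, and is also known as adipsin because adipocytes make it in large amounts. It was at 12.49, 18.68 and 0.76 FPKM in CON and at 0.55, 0.75 and 0.51 FPKM in LKO. CON 1 and CON 2 stood high, while CON 3 lay only just above the LKO libraries. The fitted log2 difference was -2.28 with an SE of 0.79 (limma, adjusted p = 0.193), and without CON 3 it was -3.35 (limma, adjusted p = 0.026). The adjusted p of limma lay between 0.026 and 0.486 across the alternatives. The defining adipocyte markers were at or near 0 in all 6 libraries: Lep and Retn were listed at 0 in each, Plin1 at 0 to 0.02 and Adipoq at 0 to 0.09 FPKM. The summed level of the adipocyte list, nearly all of it Pnpla2, which hepatocytes also express, was 31.51 to 35.15 FPKM in CON and 45.48 to 53.07 FPKM in LKO. In bulk tissue, fewer cells of a type and less RNA per cell cannot be told apart.

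The terminal components were the role within complement that stood highest relative to the other genes. On deposited FPKM, CON 1 was the lowest of the 6 libraries for 4 of them. Of the 6 genes, 5 had a positive log2 fold change, with a median of 0.24 on deposited FPKM and 0.54 after median-ratio scaling. C8b (ENSMUSG00000029656), a chain of component 8, was at 62.19, 162.00 and 191.26 FPKM in CON and at 180.68, 169.61 and 198.04 FPKM in LKO. C8a, another chain of it, was at 121.00, 301.86 and 266.95 FPKM in CON and at 253.36, 257.05 and 236.52 FPKM in LKO. C9, the component that polymerises into the pore, was at 129.60, 247.46 and 246.35 FPKM in CON and at 251.54, 225.18 and 243.80 FPKM in LKO. In all 3 genes CON 1 was the lowest library by a wide margin, and CON 2 and CON 3 lay close to the LKO libraries. Without CON 1 the log2 fold changes of C8b, C8a and C9 moved from 0.55, 0.22 and 0.27 to 0.05, -0.19 and -0.04.

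C6, which joins the complex before component 8, was at 37.19, 79.58 and 113.44 FPKM in CON and at 98.95, 69.33 and 191.95 FPKM in LKO. CON 1 was again lowest and LKO 3 highest, and the groups overlapped (log2 fold change 0.65, SE 0.48; limma, adjusted p = 0.41). Without CON 1 it was 0.21. Hc, which encodes component 5, the first of the terminal series, was at 146.61, 281.31 and 217.17 FPKM in CON and at 165.21, 122.70 and 202.26 FPKM in LKO, where LKO 2 was the lowest of all 6 libraries and the groups overlapped. C8g, the small lipocalin chain of component 8 and the most abundant of the terminal genes, did not share the low value of CON 1. It was at 364.49, 338.98 and 357.04 FPKM in CON and at 439.51, 425.58 and 343.04 FPKM in LKO.

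**Figure D2:**
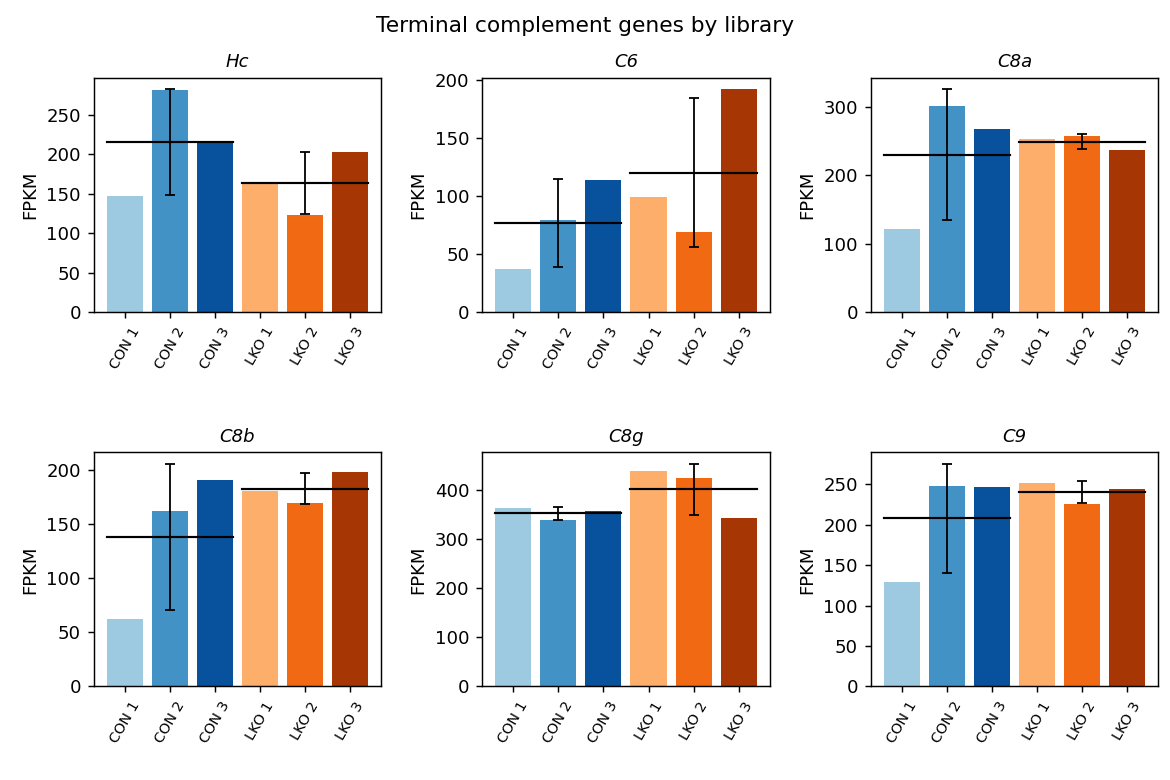
FPKM of the 6 terminal complement genes in each library (bars), with the group mean as a horizontal line and the SD over 3 libraries as an error bar. CON 1 is the lowest library for C6, C8a, C8b and C9 (62.19 FPKM for C8b, against 162.00 to 198.04 in the other libraries), but not for Hc or C8g.

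The soluble regulators of complement were lower in LKO, apart from Vtn. Cfi, which encodes factor I, the protease that inactivates C3b and C4b, was at 322.15, 385.38 and 289.89 FPKM in CON and at 174.23, 133.29 and 263.91 FPKM in LKO. The log2 fold change was -0.85 (SE 0.27; limma, adjusted p = 0.186). C4bp, whose protein is a cofactor of factor I, was at 205.18, 253.39 and 180.76 FPKM in CON and at 127, 123.33 and 165.62 FPKM in LKO (-0.62, SE 0.21; limma, adjusted p = 0.188). Serping1, the C1 inhibitor, was at 470.43, 637.79 and 507.86 FPKM in CON and at 344.91, 293.80 and 431.71 FPKM in LKO (-0.60, SE 0.22; limma, adjusted p = 0.198). In these 3 genes the groups did not overlap on deposited FPKM (24.3% of all genes in this direction) and LKO 3 lay nearest to CON. After median-ratio scaling their values were -0.55, -0.32 and -0.30, and the groups overlapped in each. Vtn, which encodes vitronectin, an inhibitor of the terminal complex and the most abundant regulator, was at 1313.26, 1996.96 and 1534.43 FPKM in CON and at 1937.49, 1997.52 and 1373.31 FPKM in LKO, with overlap.

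**Figure D3:**
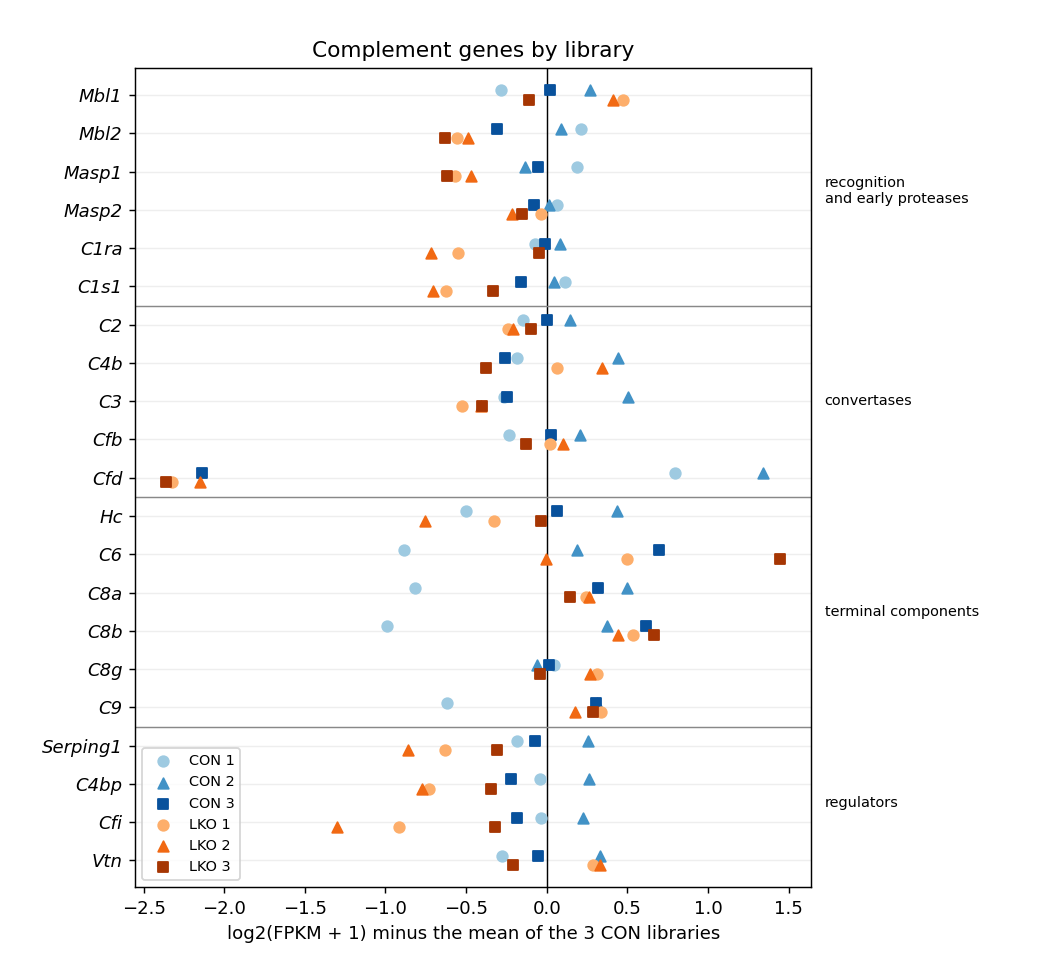
Deviation of each library from the mean of the 3 CON libraries, in log2(FPKM + 1) (x axis), for the 21 complement genes grouped by role; each symbol is 1 library. Cfd is high in CON 1 and CON 2 only, CON 1 is low for C6, C8a, C8b and C9, and LKO 1 and LKO 2 are low for Cfi, C4bp and Serping1.

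The 3 fibrinogen chain genes, Fga (ENSMUSG00000028001), Fgb (ENSMUSG00000033831) and Fgg (ENSMUSG00000033860), lie next to each other with no protein-coding gene between them (RefSeq, GRCm38.p6), and their products are joined into 1 secreted molecule. Their upstream sequences are shown because the 3 genes varied together across the libraries. Each run is the 250 bases before the RefSeq start of the gene in GRCm38.p6, read 5′ to 3′ on the strand of the gene. Capitals mark matches on either strand to the C/EBP motif TTGCNNAA, the STAT3 motif TTCNNNGAA or the interleukin-6 element CTGGGAA. The deposited values were made on the build mm9, so these coordinates belong to the sequences only.
Fga, chr3:83025903-83026152, plus strand: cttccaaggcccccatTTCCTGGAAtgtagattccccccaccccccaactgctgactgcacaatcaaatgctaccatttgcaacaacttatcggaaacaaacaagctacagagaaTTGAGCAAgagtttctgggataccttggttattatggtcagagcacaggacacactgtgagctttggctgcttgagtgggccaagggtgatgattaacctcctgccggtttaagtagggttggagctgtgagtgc
Fgb, chr3:83049864-83050113, minus strand: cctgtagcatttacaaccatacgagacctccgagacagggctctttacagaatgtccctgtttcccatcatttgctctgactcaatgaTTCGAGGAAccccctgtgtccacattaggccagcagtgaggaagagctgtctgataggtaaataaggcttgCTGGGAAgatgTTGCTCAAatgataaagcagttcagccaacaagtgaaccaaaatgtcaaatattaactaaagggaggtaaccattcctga
Fgg, chr3:83007474-83007723, plus strand: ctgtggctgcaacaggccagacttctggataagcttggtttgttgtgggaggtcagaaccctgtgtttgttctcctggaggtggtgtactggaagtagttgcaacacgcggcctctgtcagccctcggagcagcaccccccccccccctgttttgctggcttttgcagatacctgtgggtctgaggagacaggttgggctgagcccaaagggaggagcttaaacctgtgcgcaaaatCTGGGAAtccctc

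Fga held a STAT3 match 234 bases and a C/EBP match 135 bases before the start. Fgb held a STAT3 match 162, an interleukin-6 element 91 and a C/EBP match 80 bases before it. Fgg held an interleukin-6 element 13 bases before it. None of these matches overlap, although CTGGGAA can lie inside a STAT3 match, as in a site that reads TTC, TGG and GAA. A promoter sequence was found for 33 of the 42 genes, with the first RefSeq start used for each. The C/EBP motif was present in 9 of the 33 (9.55% of 27025 promoters of the same length), the STAT3 motif in 6 (7.18%) and the interleukin-6 element in 5 (9.08%). The HNF1 motif was present in 2, F13b and Hc (0.133% of promoters), and the HNF4 motif CAAAGTCCA in 0 (0.381%). A match is a string of letters and does not show that a factor binds there.

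Fibrinogen mRNA was low in LKO 2, intermediate in LKO 1 and at CON levels in LKO 3. Fga was at 1558.01, 1640.39 and 1243.19 FPKM in CON and at 674.82, 304.47 and 1866.15 FPKM in LKO. Fgb was at 852.81, 993.73 and 718.69 FPKM in CON and at 552.44, 337.97 and 920.99 FPKM in LKO. Fgg was at 1577.27, 1977.43 and 1474.29 FPKM in CON and at 1218.23, 627.10 and 1810.96 FPKM in LKO. In each gene LKO 1 and LKO 2 lay below every CON library, and LKO 3 lay within the CON range or above it, so the groups overlapped. The log2 fold changes were -1.02 (SE 0.58), -0.61 (SE 0.36) and -0.58 (SE 0.38), and none passed the threshold (limma, adjusted p = 0.306, 0.318 and 0.359). Without LKO 3, the value of Fga was -1.70 and without LKO 2 it was -0.39.

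In LKO 1 and LKO 2 Fga was low relative to Fgg as well. The ratio of Fga (2587 bases) to Fgg (1741 bases) within a library does not depend on how libraries are scaled, but the length trend is not removed from it. It was 0.988, 0.830 and 0.843 in CON and 0.554, 0.486 and 1.03 in LKO. The ratio of Fgb to Fgg stayed between 0.453 and 0.541 in all 6 libraries. The ratio of Fga to Fgg did not separate the groups (exact permutation test, two-sided, p = 0.4, n = 3 against 3).

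**Figure D4:**
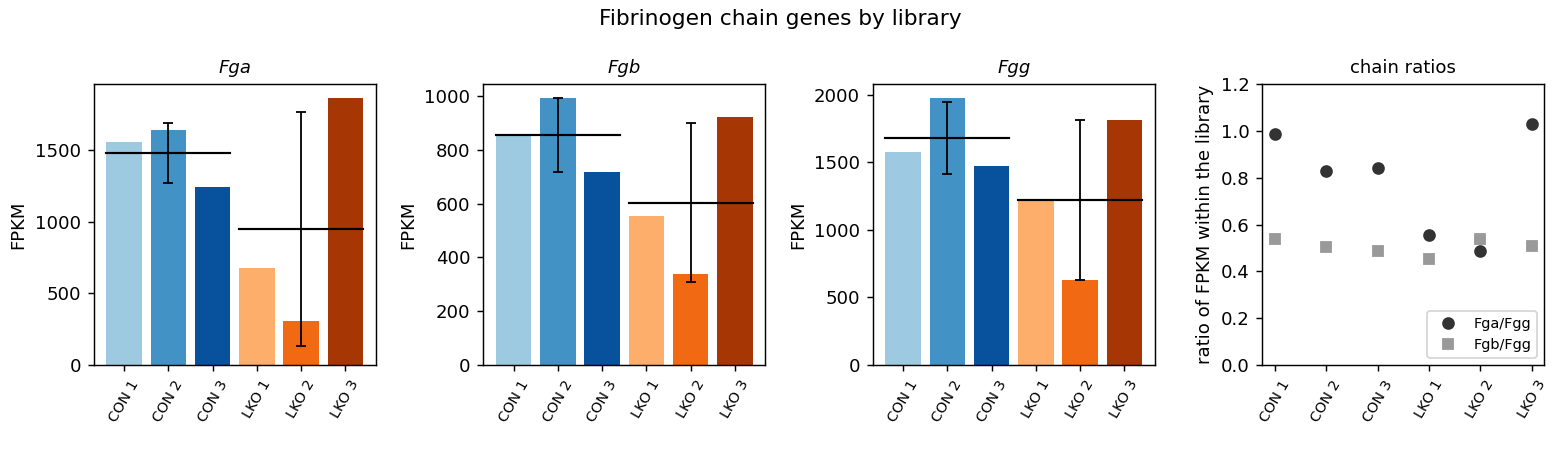
FPKM of Fga, Fgb and Fgg in each library (bars), with the group mean as a line and the SD over 3 libraries as an error bar, and the within-library ratios of Fga and Fgb to Fgg (right panel). LKO 1 and LKO 2 are low for each chain and LKO 3 is not, and only the ratio of Fga to Fgg is low in LKO 1 (0.554) and LKO 2 (0.486).

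F13b, which encodes the carrier subunit of the fibrin-crosslinking factor XIII, was at 85.97, 77.64 and 68.80 FPKM in CON and at 33.95, 25.89 and 61.77 FPKM in LKO. The groups did not overlap (log2 fold change -1.01, SE 0.31; limma, adjusted p = 0.18), and LKO 3 lay far above LKO 1 and LKO 2. After median-ratio scaling the value was -0.71 and the groups overlapped. The catalytic subunit gene F13a1, which is mainly made by cells other than hepatocytes, was listed at 0.02 to 0.13 FPKM and was not tested.

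The clotting factor genes F2, F5, F7, F9 and F10 were lower in every LKO library than in every CON library (24.3% of all genes were), but after median-ratio scaling this held for F7 alone, and F2, F5, F9 and F10 overlapped. F11, described with the contact system, overlapped on both scales. F2, prothrombin, the precursor of thrombin and the most abundant of them, was at 1007.73, 1108.55 and 883.28 FPKM in CON and at 646.60, 556.35 and 835.12 FPKM in LKO (log2 fold change -0.57, SE 0.22; limma, adjusted p = 0.207). F5, the cofactor of factor Xa, was at 73.54, 51.41 and 50.21 FPKM in CON and at 22.38, 21.30 and 45.39 FPKM in LKO (-1.02, SE 0.31; limma, adjusted p = 0.18). It is the longest of the 42 genes (7430 bases), and its value was -0.65 with the length trend removed. F7, the protease that starts the extrinsic arm with tissue factor, was at 49.36, 53.76 and 39.67 FPKM in CON and at 28.53, 26.10 and 35.05 FPKM in LKO (-0.65, SE 0.19; limma, adjusted p = 0.179). After median-ratio scaling its value was -0.36. F9, a protease of the intrinsic arm, was at 73.25, 80.75 and 74.61 FPKM in CON and at 47.81, 39.83 and 62.42 FPKM in LKO (-0.62, SE 0.20). F10, which forms factor Xa, differed by -0.32 (SE 0.17), and by -0.02 after median-ratio scaling.

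In the contact system, which starts clotting on charged surfaces and releases bradykinin, the 4 genes differed by unequal amounts. Klkb1 (ENSMUSG00000109764), plasma prekallikrein, had the lowest log2 fold change and the smallest unadjusted p of the coagulation genes. It was at 49.27, 36.85 and 37.22 FPKM in CON and at 12.15, 12.09 and 31.28 FPKM in LKO (-1.24, SE 0.36; limma, adjusted p = 0.179). The groups did not overlap, also after median-ratio scaling (-0.95) and with the length trend removed (-0.89), and LKO 3 again lay nearest to CON. F11, its paralog and neighbour, differed by -0.55 (SE 0.24) with LKO 3, at 19.64 FPKM, inside the CON range of 19.04 to 23.11. F12, factor XII, differed by -0.14 (SE 0.16) on deposited FPKM and by 0.15 after median-ratio scaling. Kng1, the kininogen and the most abundant of the 4, was at 1035.39, 1413.04 and 961.31 FPKM in CON and at 891.37, 983.27 and 840.09 FPKM in LKO, with overlap. It shares sequence with Kng2, at 142.59 to 213.91 FPKM, and reads may be split between them.

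The inhibitors of coagulation included the coagulation gene with the smallest difference. Proc, protein C, which inactivates factors Va and VIIIa, was at 396.71, 415.25 and 380.47 FPKM in CON and at 386.58, 419.53 and 390.60 FPKM in LKO, a log2 fold change of 0.01 (SE 0.16) and of 0.30 after median-ratio scaling. Its cofactor gene Pros1, protein S, differed by -0.38 (SE 0.19). Serpind1, heparin cofactor II, was at 278.39, 232.69 and 192.79 FPKM in CON and at 98.75, 90.90 and 196.43 FPKM in LKO. Only LKO 1 and LKO 2 were low (-0.94, SE 0.31; limma, adjusted p = 0.188). Serpinc1, antithrombin, the most abundant of the 21 coagulation genes, was at 2697.24, 2559.00 and 2186.38 FPKM in CON and at 1863.67, 1818.35 and 2181.11 FPKM in LKO. The groups were separated only by the small step between CON 3 and LKO 3 (-0.34, SE 0.21), and the value was -0.04 after median-ratio scaling.

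Of the 4 genes of the plasmin system, Plg, Serpinf2 and Hrg lay below every CON library in LKO 1 and LKO 2. Plg, plasminogen, was at 919.65, 985.66 and 699.07 FPKM in CON and at 450.61, 392.27 and 686.06 FPKM in LKO (log2 fold change -0.79, SE 0.26; limma, adjusted p = 0.187). Serpinf2, alpha-2-antiplasmin, the inhibitor of plasmin, was at 435.09, 362.79 and 279.58 FPKM in CON and at 182.90, 165.10 and 306.72 FPKM in LKO (-0.75, SE 0.28). Hrg, a histidine-rich glycoprotein that binds plasminogen and heparin, was at 701.69, 800.70 and 549.45 FPKM in CON and at 355.31, 366.58 and 574.42 FPKM in LKO (-0.68, SE 0.26). The groups overlapped for Serpinf2 and Hrg, because LKO 3 was above CON 3, and were just apart for Plg. After median-ratio scaling they overlapped for Plg as well (-0.49). Cpb2, the fibrinolysis inhibitor carboxypeptidase B2, differed by -0.36 (SE 0.22), with overlap.

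**Figure D5:**
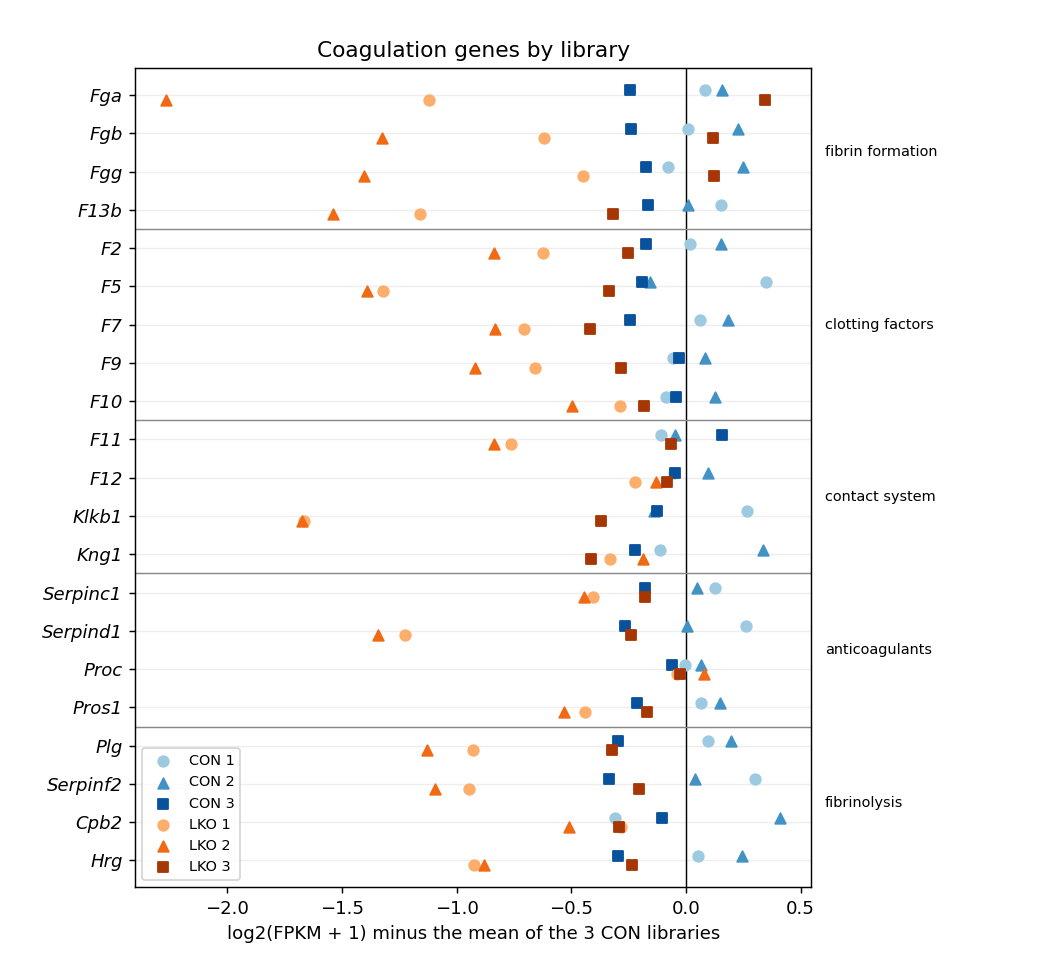
Deviation of each library from the mean of the 3 CON libraries, in log2(FPKM + 1) (x axis), for the 21 coagulation genes grouped by role; each symbol is 1 library. LKO 1 and LKO 2 (circles and triangles in orange) lie to the left of 0 for every gene except Proc in LKO 2. LKO 3 (brown squares) lies nearer to the CON libraries for most genes, but it is the lowest library for Kng1 and about level with LKO 1 for Cpb2.

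Ratios within a library were computed for 12 pairs of partners or paralogs, picked after the values of the genes had been seen. They do not depend on the scale, but the length trend is not removed from them, and its part in them was not tested. For 3 of the 12 the groups did not overlap. In each of the 3 the gene named first is the longer: Mbl1 has 1563 and Mbl2 1089 bases, Masp1 5345 and Masp2 3058, Klkb1 5249 and F11 2240. Mbl1 to Mbl2 was 0.532, 0.852 and 0.946 in CON and 1.55, 1.41 and 1.08 in LKO, higher in all 3 LKO libraries. Masp1 to Masp2 was 0.174, 0.143 and 0.162 in CON and 0.108, 0.131 and 0.113 in LKO. Klkb1 to F11 was 2.59, 1.85 and 1.61 in CON and 1.03, 1.09 and 1.59 in LKO, where CON 3 and LKO 3 nearly met. Each of these had p = 0.1, the smallest that an exact two-sided permutation test of 3 against 3 libraries can give, and 0.4 after Benjamini-Hochberg adjustment over the 12 ratios. The ratio of C8b to C8g was 0.171 in CON 1 and 0.399 to 0.577 in the other 5 libraries, and that of C8a to C8g was 0.332 in CON 1 and 0.576 to 0.890 in the others. The ratio of Serpinf2 to Plg, inhibitor to enzyme precursor, was 0.368 to 0.473 in CON and 0.406 to 0.447 in LKO.

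Several of the 42 genes are chromosomal neighbours in RefSeq (GRCm38.p6), and neighbours did not always have like values. With no protein-coding gene between them lie C8b and C8a (log2 fold changes 0.55 and 0.22), C1ra and C1s1 (-0.44 and -0.55), Cfb and C2 (-0.00 and -0.18), F7 and F10 (-0.65 and -0.32), and F11 and Klkb1 (-0.55 and -1.24), besides the fibrinogen genes. Hrg and Kng1 (-0.68 and -0.31) have only Kng2 between them. Gene length was related to the values unevenly. Spearman's rho of log2 fold change with length was -0.34 over the 21 coagulation genes, -0.00 over the 21 complement genes and -0.30 over all genes, given as a description, since genes share libraries and are not independent. With the length trend removed from each library the median of the coagulation genes was -0.37 and that of complement 0.06, against 0.00 for all genes.

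Other genes of the same pathways, listed by role and not by their values, gave no gene past the threshold in limma. Of 14 other complement genes made by liver, 11 were tested and 7 had a negative log2 fold change (71.6% of all genes did). The groups stood apart in the lower direction for 3 (24.3% of all genes). Among them were C1rl, a C1r-like protease gene (-0.78), and Cpn2, the regulatory subunit of the carboxypeptidase that inactivates anaphylatoxins (-0.84). Of 14 other coagulation genes active in liver, 13 were tested and 11 were negative (71.6% of all genes), with a median of -0.41. The groups stood apart in the lower direction for 3 (24.3% of all genes). These were the hyaluronan-binding protease gene Habp2 (-0.78), the protease gene Hpn (-0.38) and Proz, protein Z (-0.41). After median-ratio scaling 8 of the 13 were negative (48.9% of all genes), and the groups stood apart in the lower direction for 0 (11.1% of all genes). The vitamin K cycle genes Ggcx and Vkorc1, named here after their values were seen, differed by -0.44 and 0.06.

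Complement and coagulation genes made mainly by other cells were near or above the median of all genes. Of the 14 complement genes of this kind 8 were tested, with a median of -0.15, and the smallest p belonged to the membrane regulators Cd59a (-0.61), Cr1l (-0.43) and Cd55 (-0.37). The summed level of this list was 191.12 to 247.78 FPKM in CON and 158.24 to 258.79 FPKM in LKO. C1qa, C1qb and C1qc, which Kupffer cells express, differed by 0.15, -0.06 and 0.05, and are named here after their values were seen. Of the 14 coagulation genes of this kind 8 were tested, with a median of 0.05, and all were low. Among those with the smallest p were the tissue factor gene F3 (-0.34) and Vwf (0.48), the gene of von Willebrand factor. The summed level of the Kupffer cell list was 107.27 to 162.44 FPKM in CON and 82 to 165.29 FPKM in LKO, and that of the sinusoidal endothelium list 38.09 to 91.63 and 46.11 to 67.31 FPKM. Those of the stellate cell list were 82.50 to 86.88 and 77.27 to 111.19 FPKM, and those of the cholangiocyte list 29.40 to 51.47 and 34.08 to 74.87 FPKM. Platelet and megakaryocyte markers summed to at most 5.36 FPKM. Blood markers summed to 88.02 to 547.48 FPKM in CON and 135.64 to 299.13 FPKM in LKO.

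Inducible acute phase genes differed most within CON. The summed level of 14 such genes was 8949, 28380 and 18829 FPKM in CON and 10710, 9426 and 9950 FPKM in LKO. CON 1 was thus at the LKO level, as shown by Saa1, serum amyloid A1, named here after its values were seen, at 78.03, 4050.97 and 3561.49 FPKM in CON and at 139.05 to 244.90 FPKM in LKO. The 3 genes with the smallest p were Saa4 (-1.14), Itih3 (-0.98) and Lcn2 (-2.27, with 11.27, 285.88 and 46.84 FPKM in CON). CON 2, the highest library for the acute phase list, was also the highest CON library for the acute phase genes C3 and Cfb and the chains of fibrinogen, among others. Each fibrinogen chain was lower in CON 3 than in CON 1 (Fga at 1243.19 and 1558.01 FPKM), although the list was higher in CON 3. Fga was highest of all 6 libraries in LKO 3, at 1866.15 FPKM, where the acute phase list was low. CON 1, the lowest CON library for that list, was the lowest of all 6 libraries for 7 of 21 complement genes, namely Mbl1, Cfb, C6, C8a, C8b, C9 and Vtn (10.1% of all genes), and for 0 of 21 coagulation genes. The part of this response in the differences between CON and LKO was not tested.

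Most transcription factors and receptors that act on these genes in hepatocytes were low in LKO 1 and LKO 2. In each of these libraries 13 of 14 lay below every CON library, against 4 of 14 in LKO 3. Over all genes the shares were 51.0% in LKO 1, 62.0% in LKO 2 and 40.7% in LKO 3. Of the 14 factors and receptors, 13 had a negative log2 fold change (71.6% of all genes did). Their median was -0.58 on deposited FPKM, -0.29 after median-ratio scaling and -0.26 with the length trend removed. The list deviated from the CON mean by a median of -0.84 in LKO 1, -0.90 in LKO 2 and 0.14 in LKO 3. Stat3, the transcription factor of interleukin-6 signalling, was at 22.01, 20.79 and 20.85 FPKM in CON and at 5.58, 6.07 and 19.08 FPKM in LKO (-1.18; limma, adjusted p = 0.189). Il6ra, which encodes the interleukin-6 receptor and is named after its values were seen, was at 6.21, 9.63 and 7.05 FPKM in CON and at 1.13, 1.94 and 9.01 FPKM in LKO. Both genes were low in LKO 1 and LKO 2. In LKO 3, Stat3 was just below every CON library and Il6ra was within the CON range. A link of either gene to the fibrinogen genes was not tested. Stat3 and Il6ra are long (6042 and 8639 bases), and with the length trend removed their log2 fold changes were -0.82 and -0.73. Cebpa, a C/EBP factor of hepatocytes, was at 173.06, 169.51 and 205.07 FPKM in CON and at 94.68, 97.14 and 159.76 FPKM in LKO (-0.67). Cebpb, another C/EBP factor and the exception to the direction of the list, named after its values were seen, was at 22.42, 49.46 and 35.54 FPKM in CON and at 61.83, 41.43 and 42.02 FPKM in LKO (0.47, SE 0.30), with overlap. Nr1h4, the bile acid receptor FXR, differed by -0.62 with no overlap, and here LKO 3 was the lowest library, at 37.44 FPKM against 45.38 and 43.54 FPKM. After median-ratio scaling its value was -0.33, with overlap.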

How the data were processed

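Liver RNA was measured by RNA sequencing in 6 libraries, 3 CON and 3 LKO, grouped by the labels. Per the submitters' processing notes, HISAT2 and StringTie were used with the mouse build mm9; the sources used here give no version, option or strand setting. The deposited values are FPKM per gene, made by the authors; a deposited length in bases per gene accompanies them, as another column. FPKM are not counts, so no count model was used, and the depth in reads is unknown. FPKM are relative, so very abundant transcripts push the values of the remaining genes down.

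Genes with a mean of at least 1 FPKM (11104) were taken to log2(FPKM + 1) and compared with limma 3.58.1 in R 4.3.3 (lmFit, eBayes with a trend) in a two-sided test of the group alone, with Benjamini-Hochberg adjustment over all 11104 genes at a threshold of 0.05. The log2(FPKM + 1) scale understates changes of low genes. Median-ratio scaling used 10896 genes above 0 in all libraries. The length trend was removed from each library by lowess (span 0.3). Ratios were tested with an exact permutation test. Promoters and gene order are from RefSeq, GRCm38.p6. Of these steps, the limma fit was tested on simulated data. The simulated noise was independent and held no length trend and no shift between libraries.

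The members and lists were chosen with earlier results of these data known, and no p-value was adjusted over a list alone. Every member is named. FPKM per library are given for the 10 complement and 10 coagulation genes with the smallest unadjusted p, for the most abundant gene of each role and for Cd36, and up to 3 genes per further list are named by p. Some genes of the further lists that this rule names are not reported here. Library values of Mbl1, C6, C8a, C9, Hc, Fga, Fgb, Proc and of the further-list genes were added after they were seen. Alternatives were other pseudocounts, filters and scalings, removal of mitochondrial and Mup genes, array weights, the library number as a block, and leaving out each library.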

Additional observations from a re-analysis of the deposited data

How the results depend on the processing

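On deposited FPKM limma passed 1 gene in the lower and 0 in the higher direction over all genes, and 0 of the 42. The count in the lower direction was 0 with a pseudocount of 0.1, with no filter, with a minimum mean of 5 FPKM and with the length trend removed. Array weights (gene-by-gene weights, since the default did not converge) passed 2403 lower and 669 higher genes, among them 6 complement and 12 coagulation genes in the lower direction. Leaving out 1 library gave 0 to 2115 lower and 0 to 511 higher genes over all, 0 to 5 lower complement genes and 0 to 13 lower coagulation genes. The highest counts were those without LKO 3, and without CON 3 the complement gene that passed was Cfd.

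With the library number as a replicate block, 0 genes passed. Deviations of same-numbered libraries correlated at -0.05, 0.17 and 0.07, and those of differently numbered libraries at -0.16 to 0.06. With 3 libraries per group these values cannot show whether the numbers pair the libraries.

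The complement median was 0.11 after median-ratio scaling and 0.063 with the length trend removed, and it lay -0.16 from that of all genes with no filter. The coagulation median was -0.31 after median-ratio scaling. For other liver complement genes the median was -0.040 after median-ratio scaling. For other liver coagulation genes it was -0.11 after that scaling, -0.28 with quantile normalization, -0.18 with the length trend removed, and -0.45 to -0.28 on leaving out 1 library. For coagulation genes of other cells it was 0.39 with the length trend removed. Masp2, C2, Cfb and F12 changed sign after median-ratio scaling. With 3 libraries per group, unknown depth and a scale that moves all genes, differences of the size seen here could not be told from the spread between libraries. The causes were not tested.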
